A study of Mus musculus with 4 samples.

Results

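The interferon response and sensing genes examined here were 40 named genes of the interferon system, taken from the 22483 gene symbols used from the deposited files by matching the symbol. All 40 were listed on 1 row each in all 4 libraries. They comprised 19 antiviral effectors, 3 genes of the ISG15 system, 5 nucleic acid sensors, the 3 genes Parp9, Parp14 and Dtx3l, 5 transcription factors, 4 receptor chains and the immunoproteasome subunit Psmb10. RNA was sequenced from invariant natural killer T (iNKT) cells, innate-like T cells that recognise lipids on CD1d, and from CD44-high CD4+ T cells (CD44hi), the antigen-experienced CD4+ fraction, both sorted from spleens of mice on the C57BL/6 background. The mice were either wild-type (WT) or Ezh2fl/fl with CD4-Cre (KO). Ezh2 encodes the catalytic subunit of the repressive complex PRC2, and CD4-Cre removes floxed sequence in the T cell lineage from the thymic stage on. Cells outside that lineage are not its target. The labels give no age, no infection or treatment and no number of mice, and the WT label does not say whether these mice carried the floxed allele or Cre.

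Type I interferons are secreted when cells sense foreign or misplaced nucleic acid. They bind IFNAR1 and IFNAR2, interferon gamma binds IFNGR1 and IFNGR2, and both receptors signal through JAK kinases to STAT factors. STAT2 and IRF9 act in a complex that binds the interferon-stimulated response element in the promoters of interferon-stimulated genes, and interferon gamma acts through the gamma-activated site. Resting T cells keep a low, tonic level of many of these genes. In iNKT cells, which release interferon gamma soon after stimulation, this pathway acts both as a product of the cell and as a signal to it.

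With 1 library for each group, replicates are lacking and nothing was tested. The members were chosen with earlier results of these data known, so their shares beside those of all genes only describe the list. Values are FPKM, a level scaled to both transcript length and sequencing depth, and 4 values given together stand in the order WT iNKT, KO iNKT, WT CD44hi, KO CD44hi. A gene was called higher or lower when log2(FPKM + 1) differed by at least 1, which is 2-fold, and when at least 1 of the 2 libraries reached 1 FPKM. This scale understates differences of low genes, so folds are given as plain FPKM ratios. Intervals in parentheses are 95% exact (Clopper-Pearson) counting intervals from estimated fragments, and they leave out biological variation and that of the sorts. In these mixed populations of RNA, fewer cells that use a gene and less RNA per cell cannot be told apart.

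The libraries differed in depth and in RNA of other cells. The estimated depths were 4830000, 5220000, 17790000 and 23600000 fragments. Ezh2 was at 15.3, 16.8, 28.9 and 18.5 FPKM. Values over the whole gene keep reads from exons outside the floxed part, so they do not check the labels. The 5 T cell genes with a row (Cd3d, Cd3e, Cd3g, Cd4 and Cd28) were above 1 FPKM in all 4 libraries. So were the 6 iNKT genes (Zbtb16, Klrb1c, Slamf6, Cd160, Cxcr6 and Il2rb), with sums of 1637, 649, 375 and 460 FPKM. The Y-linked genes Eif2s3y and Ddx3y were at 22.7 and 11.5 FPKM in WT CD44hi and at or near 0 in the other libraries. Xist, transcribed from the inactive X, was at 55.3, 76.8, 46.8 and 80.0 FPKM. A difference in sex thus cannot be told apart from genotype in the CD44hi pair or from cell type in the WT pair. The difference of genotype effects between cell types uses WT CD44hi too. All 8 plasmacytoid dendritic cell markers were at 1 FPKM or more in both CD44hi libraries, with a summed level of 157 FPKM in WT and 627 in KO. In the iNKT libraries that sum was 113 in WT and 109 in KO, of which Bst2, also used by T cells, made up 101 and 78.7, and the defining marker Siglech was listed at 0 in both. Cd79a of B cells was at 0.517, 0.319, 15.3 and 30.1 FPKM and Lyz2 of myeloid cells at 5.79, 3.57, 34.7 and 33.7. The 8 myeloid markers summed to 31.7, 16.7, 399.6 and 675 FPKM, the 6 B cell markers to 0.712, 1.12, 45.2 and 82.7 and the 5 red cell genes to 18.7, 17.7, 149 and 721.

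The promoters of 3 members with levels that differed at least 2-fold between the WT cell types, though not between the KO ones, are shown first, because they carry the response element through which interferon acts. The windows are RefSeq's, on GRCm38.p6, from 250 bases before to 50 after the start, printed 5′ to 3′ on the strand of the gene. Capitals mark matches of GAAANNGAAA on either strand, where N is any base, and overlapping matches run together.
Ifit1, chr19:34640639-34640938, plus strand: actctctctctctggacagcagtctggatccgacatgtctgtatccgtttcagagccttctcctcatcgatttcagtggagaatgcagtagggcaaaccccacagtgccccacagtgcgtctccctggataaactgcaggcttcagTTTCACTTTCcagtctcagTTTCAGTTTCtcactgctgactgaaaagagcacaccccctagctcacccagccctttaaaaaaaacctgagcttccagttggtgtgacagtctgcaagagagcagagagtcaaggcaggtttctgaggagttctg
Ifit3, chr19:34583279-34583578, plus strand: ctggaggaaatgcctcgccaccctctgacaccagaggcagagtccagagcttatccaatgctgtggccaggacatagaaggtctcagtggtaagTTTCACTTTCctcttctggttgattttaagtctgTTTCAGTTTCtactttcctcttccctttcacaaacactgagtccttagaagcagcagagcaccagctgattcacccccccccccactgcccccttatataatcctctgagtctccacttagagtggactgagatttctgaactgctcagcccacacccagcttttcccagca
Isg15, chr4:156200769-156201068, minus strand: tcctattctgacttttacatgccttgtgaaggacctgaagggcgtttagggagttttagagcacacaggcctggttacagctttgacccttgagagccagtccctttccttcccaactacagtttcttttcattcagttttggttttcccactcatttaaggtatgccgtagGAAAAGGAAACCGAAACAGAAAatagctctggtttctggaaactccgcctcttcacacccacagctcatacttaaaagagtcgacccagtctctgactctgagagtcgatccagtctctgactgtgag
The Ifit1 window held 2 matches, beginning 104 and 85 bases before the start, and the Ifit3 window held 2, beginning 156 and 122 bases before it. The Isg15 window held 3 overlapping matches, beginning 78, 72 and 66 bases before the start. Of the 40 members, 31 had a window, and 11 of these held GAAANNGAAA, against 3.99% of the 27025 genes with a window. The other 8 were Oas1a, Oas3, Rsad2, Irf2, Ifih1, Ddx58, Eif2ak2 and Stat2. Oasl1 and Ifi44, also called higher in WT iNKT than in WT CD44hi, had windows without these letters. Oas3 was 2.08-fold higher in iNKT than in CD44hi cells in WT and 2.18-fold higher in KO. The letters TTCNNNGAA, a core of the gamma-activated site that reads the same on both strands, stood in windows of 11 of the 31 members and of 9.55% of all genes. A match describes these letters and is not evidence of binding.

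Across libraries the members were well above the typical gene. Their median level was 26.1, 23.1, 21.8 and 23.2 FPKM, where the median over all genes at 1 FPKM or more was 12.9, 12.9, 12.3 and 12.1. Ifi27l2a, a small interferon-induced membrane protein gene, was the highest member in every library, at 446, 509, 419 and 324 FPKM. Ifi44, an interferon-induced antiviral gene, was the lowest in every library, at 2.79, 0.199, 0.796 and 2.31 FPKM. For 22 of the 40 members the highest of the 4 values was in WT iNKT, and for 18 the lowest was in WT CD44hi, where 22.1% and 23.3% of all measured genes had theirs. The highest value was under 2 times the lowest in 29 members and in 66.8% of all measured genes, with the smallest spread in Parp14 (1.11-fold) and the largest in Ifi44 (14.0-fold).

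**Figure D1:**
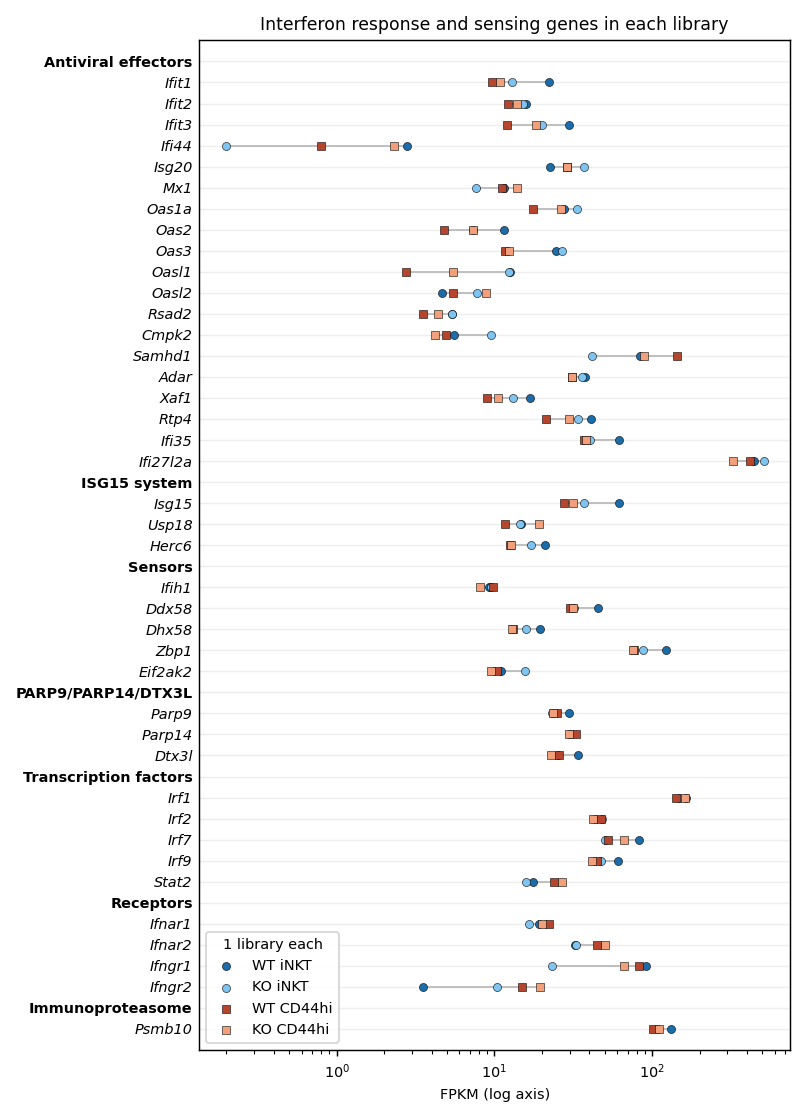
FPKM of each of the 40 members (horizontal log axis) in the 4 libraries, with 1 point per library, a grey line from the lowest to the highest value and genes grouped by role. WT iNKT holds the highest value of 22 members (22.1% of all measured genes have theirs there), and Ifi44 and the receptor chains Ifngr1 and Ifngr2 spread most widely within their groups.

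Both interferon gamma receptor chains differed by more than 2-fold between genotypes in iNKT cells, in opposite directions. Ifngr1, which encodes the ligand-binding chain, was at 91.8 (WT iNKT), 23.3 (KO iNKT), 82.6 (WT CD44hi) and 66.2 FPKM (KO CD44hi). KO iNKT stood well below the other 3 libraries, which lay close together. Ifngr1 was thus 3.95-fold lower in KO iNKT than in WT iNKT (3.44 to 4.56) and 1.25-fold lower in KO CD44hi than in WT CD44hi (1.19 to 1.31). Ifngr2, which encodes the chain that brings JAK2 to the receptor, was at 3.53 (WT iNKT), 10.4 (KO iNKT), 15.1 (WT CD44hi) and 19.4 FPKM (KO CD44hi). WT iNKT had the lowest value, and each KO library lay above its WT partner. Ifngr2 was 2.94-fold higher in KO iNKT (2.21 to 3.98) and 1.29-fold higher in KO CD44hi (1.19 to 1.40). The CD44hi pair also differed in Y-linked RNA and in RNA of other cells, as given above, and their part was not tested.

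As a ratio of levels per length within a library, Ifngr1 was 26.0 times Ifngr2 in WT iNKT, 2.24 times in KO iNKT, 5.48 times in WT CD44hi and 3.404 times in KO CD44hi. WT iNKT had the most uneven pair and KO iNKT the most even. The type I chains, by contrast, stayed within 2-fold in all 4 comparisons. Ifnar1 was at 19.2, 16.5, 22.3 and 19.99 FPKM and Ifnar2 at 32.5, 32.8, 44.8 and 50.4 FPKM. Ifnar2 was lower in iNKT than in CD44hi cells, 1.38-fold in the WT pair (1.24 to 1.54) and 1.53-fold in the KO pair (1.39 to 1.70).

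**Figure D2:**
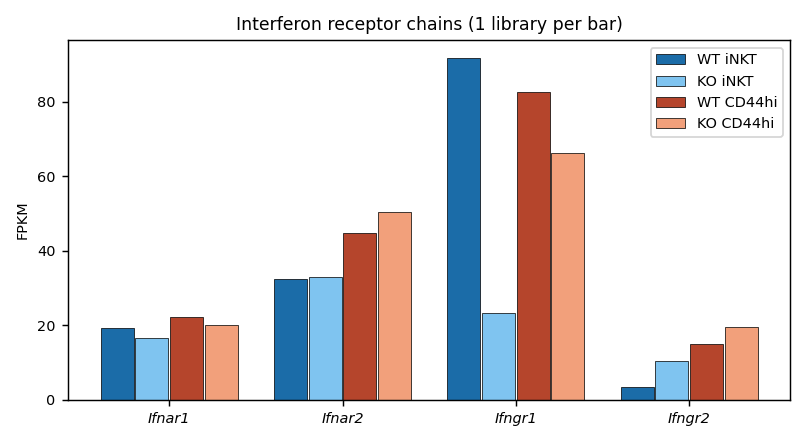
FPKM (vertical axis, from 0) of the 4 interferon receptor chains, with 1 bar per library. Ifngr1 is at 23.3 in KO iNKT and between 66.2 and 91.8 in the other libraries, while Ifngr2 runs from 3.53 in WT iNKT to 19.4 in KO CD44hi.

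Of the receptor genes, 3 are neighbours. Ifnar2 (GRCm38 chromosome 16, 91372783 to 91405589), Ifnar1 (91485238 to 91507441) and Ifngr2 (91547072 to 91565623), all on the plus strand, lie within 193 kb, and Il10rb, a receptor gene for IL-10 family cytokines, belongs to the same cluster. In KO iNKT against WT iNKT the ratios were 1.01 for Ifnar2 (0.882 to 1.16), 0.863 for Ifnar1 (0.732 to 1.02) and 2.94 for Ifngr2. Il10rb went from 34.7 to 21.8 FPKM. The higher value in KO iNKT was therefore seen for Ifngr2 among these 4 genes. Ifngr1 lies apart, on chromosome 10 (19591949 to 19610229, plus strand). The promoter windows of both gamma receptor genes follow, with CG dinucleotides in capitals, since PRC2 is known to act at promoters rich in CG.
Ifngr1, chr10:19591699-19591998, plus strand: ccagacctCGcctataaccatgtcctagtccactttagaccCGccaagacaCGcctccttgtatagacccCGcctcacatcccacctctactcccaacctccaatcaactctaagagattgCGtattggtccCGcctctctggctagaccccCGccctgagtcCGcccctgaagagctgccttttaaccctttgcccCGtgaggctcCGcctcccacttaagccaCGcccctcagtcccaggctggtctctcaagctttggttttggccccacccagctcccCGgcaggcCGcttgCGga
Ifngr2, chr16:91546809-91547108, plus strand: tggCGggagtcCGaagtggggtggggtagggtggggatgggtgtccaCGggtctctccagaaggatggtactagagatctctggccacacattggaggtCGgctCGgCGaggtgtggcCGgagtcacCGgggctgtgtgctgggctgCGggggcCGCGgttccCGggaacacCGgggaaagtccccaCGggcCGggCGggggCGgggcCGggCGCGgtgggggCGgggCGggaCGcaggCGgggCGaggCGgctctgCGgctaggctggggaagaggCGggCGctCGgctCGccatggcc
The Ifngr1 window held 14 CG dinucleotides and the Ifngr2 window 31, where the members with a window ranged from 1 (Ifit3) to 43 (Irf1) with a median of 8, and the median of all windows was 7. Neither window held GAAANNGAAA or TTCNNNGAA, which says nothing about factors that bind elsewhere. Irf1 (43 CG), Adar (34) and Samhd1 (29) were at ratios of 0.908, 0.962 and 0.495 in KO iNKT against WT iNKT. Whether PRC2 acts at any of these genes was not tested.

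The first comparison, KO iNKT against WT iNKT, asks how the interferon genes differ between genotypes in this lineage. Apart from the receptor chains, the differences were modest and mostly downward: Ifi44 was the other member called, and a set of interferon-stimulated genes was 1.4-fold to 2-fold lower without reaching the 2-fold rule. In all, 1 of 40 members was called higher (Ifngr2) and 2 lower (Ifi44 and Ifngr1), where 6.08% of 10819 measured genes were called higher and 3.35% lower. That is near the share over all genes. The median log2 difference was -0.23 over the members and 0.05 over all measured genes, and 28 of 40 members lay below 0 and 12 above, where 44.1% and 55.9% of all measured genes did. Of the 6 iNKT genes, 2 were called lower in KO iNKT (Il2rb, 814 to 198 FPKM, and Cxcr6, 468 to 94.6), which carry the lower sum, and 2 higher (Zbtb16, 28.2 to 63.1, and Slamf6, 74.3 to 151). Of the 8 myeloid markers, 2 were called lower (Fcer1g, 7.25 to 2.37 FPKM, and Tyrobp, 6.95 to 1.98) and 0 higher. Of the 8 plasmacytoid dendritic cell markers, 1 was called higher and 0 lower. The part of all these genes in the members' values was not tested. Beyond counting error 20 members were lower and 7 higher, against 18.8% and 28.1% of the 9768 measured genes with a transcript length. More fragments narrow these intervals, and the members had higher levels than the typical gene. The shares beyond counting error are therefore not a like background, here or in the other comparisons.

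Among the antiviral effectors, Ifi44 went from 2.79 FPKM (WT) to 0.199 (KO). The second value rests on about 3 fragments, so the 14.0-fold lower level has a wide counting interval (4.47 to 71.1). Samhd1, which encodes a dNTP hydrolase that restricts viral DNA synthesis, went from 83.6 to 41.4 FPKM. It was 2.02-fold lower (1.84 to 2.22), but at a log2 difference of -0.998 it lay just inside the rule. Ifit1, whose product binds foreign RNA lacking cap methylation, was 1.73-fold lower (1.44 to 2.11), and its neighbour Ifit3 1.496-fold lower (1.23 to 1.82). Ifit1 went from 22.3 to 12.9 FPKM and Ifit3 from 29.9 to 20.02.

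The third gene of that cluster differed less. Ifit2 was at 15.97 and 15.1 FPKM, a ratio of 0.946 (0.804 to 1.12). Oas2, one of the synthetases of 2′-5′ oligoadenylate, the activator of RNase L, was 1.58-fold lower (1.28 to 1.96), while its neighbours Oas3 and Oas1a were at ratios of 1.102 (0.982 to 1.23) and 1.19 (1.01 to 1.41). The Ifit and Oas1 families hold related copies, among them Gm14446 (RefSeq's Ifit1bl1) at 49.7 and 21.5 FPKM and I830012O16Rik (Ifit3b) at 17.1 and 10.05. Oas1b was at 19.9 and 10.9 FPKM and Oas1g at 9.47 and 12.8. How reads shared between copies were assigned is not given in the sources used here, so single members of these families are uncertain.

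Beside Oas1a, 4 effectors were higher in KO iNKT beyond counting error. Cmpk2, which lies beside Rsad2 and encodes a nucleotide kinase, was at 5.51 and 9.48 FPKM (1.72-fold, 1.31 to 2.26). Isg20, an RNA exonuclease gene, was at 22.5 and 36.9 (1.64-fold, 1.26 to 2.14), and Oasl2 at 4.69 and 7.76 (1.66-fold, 1.22 to 2.23). Ifi27l2a was at 446 and 509 (1.14-fold, 1.05 to 1.24). Rsad2, which encodes the antiviral enzyme viperin, was at 5.35 and 5.40 FPKM. Mx1, a GTPase gene of the antiviral Mx family, was at 11.5 and 7.67, Ifi35 at 61.4 and 40.1, and the RNA-editing gene Adar at 37.3 and 35.9. Effectors thus differed in both directions, 8 of the 19 lower and 5 higher beyond counting error, with a median log2 difference of -0.07.

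Of the ISG15 system, Isg15, the ubiquitin-like modifier itself, went from 62.1 FPKM to 37.0 (1.68-fold lower, 1.35 to 2.08). Usp18, the protease that removes it and that restrains IFNAR2 signalling, was at 14.7 and 14.6. Herc6, the mouse ligase gene for ISG15, was at 20.9 and 17.2. Among the sensors, Ddx58, which encodes RIG-I, was 1.41-fold lower (1.28 to 1.57), from 45.5 to 32.2 FPKM. Zbp1, a sensor of Z-form nucleic acid that can trigger necroptosis, was 1.40-fold lower (1.26 to 1.55), from 123 to 88.0. Ifih1, which encodes MDA5, was at 9.29 and 9.47 FPKM, and Eif2ak2, which encodes the kinase PKR, at 11.1 and 15.6 (1.41-fold higher, 1.19 to 1.67).

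The transcription factors gave 1 larger difference. Irf7, the factor that amplifies type I interferon production, was 1.63-fold lower in KO iNKT (1.45 to 1.82), from 82.2 to 50.5 FPKM. Irf9 went from 60.8 to 47.4 (1.28-fold lower, 1.15 to 1.43), whereas its partner Stat2 was at 17.5 and 15.9, Irf1 at 164 and 148 and Irf2 at 43.5 and 48.0. An exon of Irf7 overlaps one of Phrf1 on the opposite strand, and the library kit does not mark strand. Parp9 and Dtx3l, a complex that acts in DNA repair and interferon signalling and whose genes share a start region, were 1.28-fold (1.12 to 1.47) and 1.33-fold lower (1.18 to 1.49), and Parp14 was at 30.4 and 30.1. Exons of Parp9 and Dtx3l also overlap each other on opposite strands, so reads there may count for either gene. Psmb10, a catalytic immunoproteasome subunit gene, was at 131 and 109 FPKM.

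**Figure D3:**
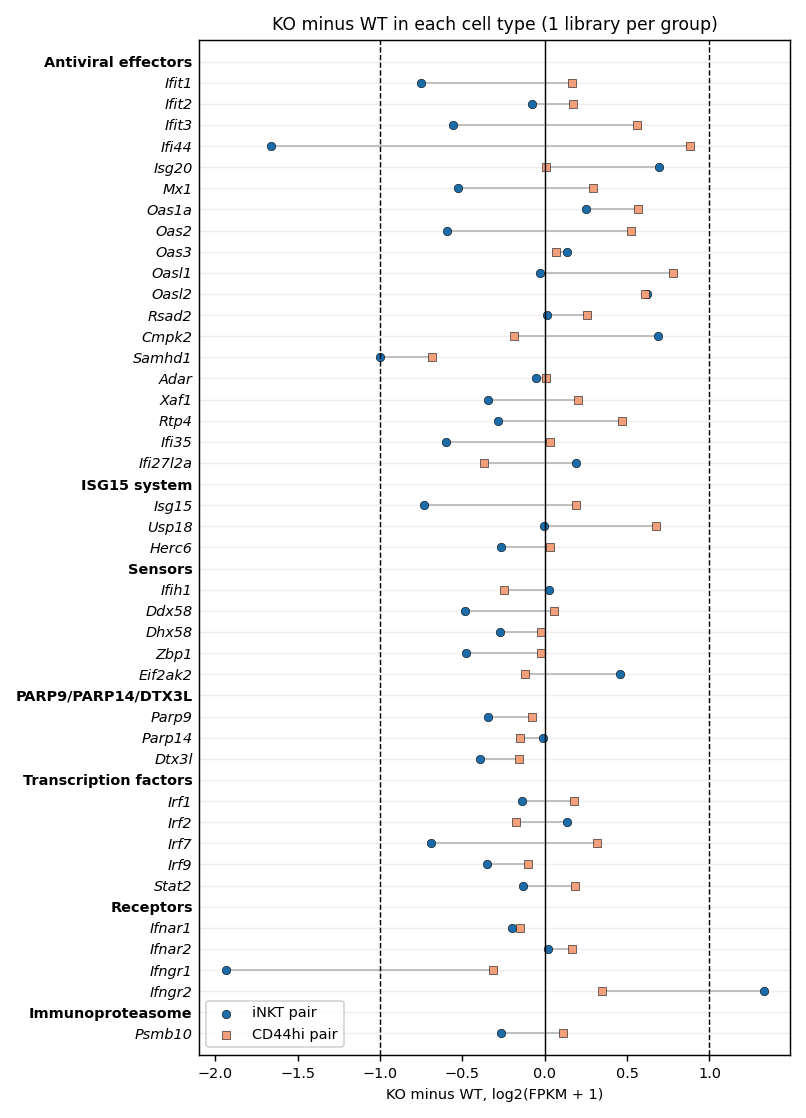
KO minus WT on log2(FPKM + 1) for each member (horizontal axis) in the iNKT pair (circles) and the CD44hi pair (squares), with dashed lines at the 2-fold rule. Of the members, 3 pass it in the iNKT pair (Ifngr1, Ifi44 and Ifngr2) and 0 in the CD44hi pair, and 19 members lie below 0 in the iNKT pair and above 0 in the CD44hi pair.

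In CD44hi cells no member reached the 2-fold rule between genotypes: 0 of 40 were called higher and 0 lower, against 2.44% and 1.14% of 11354 measured genes. Of the 19 effectors, 16 lay above 0, while 4 of the 5 sensors and all 3 of Parp9, Parp14 and Dtx3l lay below 0. The median log2 difference was 0.09 over the members, with 26 above 0 and 14 below (52.4% and 47.6% of all measured genes), 0.20 over the 19 effectors and 0.01 over all measured genes. At these greater depths 19 members were higher and 9 lower beyond counting error, against 28.2% and 25.6% of 10273 genes. Marker genes also differed: 7 of the 8 plasmacytoid dendritic cell markers were called higher in KO CD44hi, Siglech going from 11.1 to 75.7 FPKM. So were 4 of the 5 red cell genes, 1 of the 6 B cell markers and 1 of the 8 myeloid markers. Of the 6 iNKT genes, 3 were called higher (Zbtb16, 4.30 to 41.4 FPKM, Klrb1c, 14.9 to 58.5, and Cd160, 13.2 to 54.5). Il2rb went from 178 to 102. The part of all these in the members' levels was not tested.

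The members furthest apart on the log2 scale in the CD44hi pair were Ifi44, Oasl1 and Samhd1. Ifi44 went from 0.796 FPKM (WT) to 2.31 (KO), 2.90-fold higher as a plain ratio (2.06 to 4.23), which the log2(FPKM + 1) scale shrinks to 0.88. Oasl1, whose mouse protein restrains Irf7 translation, was at 2.76 and 5.45 FPKM (1.98-fold, 1.57 to 2.49). Usp18 was at 11.7 and 19.3 FPKM (1.65-fold, 1.46 to 1.87) and Oasl2 at 5.48 and 8.88 (1.62-fold, 1.41 to 1.87). Ratios near 1.5 were found for Oas2 (4.82 and 7.37 FPKM), Ifit3 (12.1 and 18.3) and Oas1a (17.5 and 26.4).

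Samhd1 went the other way. It went from 144 FPKM (WT) to 89.4 (KO), 1.61-fold lower (1.56 to 1.67), so that each KO library lay below its WT partner. The difference in sex given above applies to this CD44hi pair too. Ifi27l2a was 1.29-fold lower (1.23 to 1.35). Among the sensors Ifih1 was 1.21-fold lower (1.1002 to 1.34), at 9.77 and 8.05 FPKM, with Ddx58, Dhx58 and Zbp1 at ratios of 1.04 (0.983 to 1.101), 0.984 (0.881 to 1.101) and 0.985 (0.927 to 1.05). Irf7 was 1.25-fold higher (1.18 to 1.33), at 52.9 and 66.2 FPKM, and Stat2 1.14-fold higher (1.074 to 1.21), at 23.7 and 27.0.

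The genotype effect itself was set between cell types by subtracting the CD44hi log2 difference from the iNKT one, with no test possible. It reached a size of 1 in 5 of 40 members, all with the lower effect in iNKT, where 5.38% of 11718 measured genes lay that far down and 6.15% that far up. These were Ifi44 (-2.54), Ifngr1 (-1.62), Oas2 (-1.12), Ifit3 (-1.12) and Irf7 (-1.01). The difference lay below 0 in 30 of 40 members, with a median of -0.30 over the members and 0.03 over all measured genes. Signs were opposite in 24 members, of which 19 were lower in KO iNKT and higher in KO CD44hi and 5 the reverse. Over the 11718 measured genes signs were opposite in 44.9%, split into 21% and 23.9%.

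WT iNKT was compared with WT CD44hi to ask how the lineages differ without the deletion. Several effector genes and Isg15 were higher in WT iNKT, and Ifngr2 was lower. Of 40 members, 6 were called higher (Oasl1, Ifit3, Isg15, Ifit1, Oas2 and Ifi44), where 3.65% of 11219 measured genes were, and 1 was called lower, where 10.9% were. The median was 0.37 over the members and -0.06 over all measured genes, with 30 members above 0 and 10 below (44.5% and 55.5% of all measured genes). Beyond counting error 26 members were higher and 7 lower, against 25.2% and 36.3% of 10139 genes. The sums of B cell and myeloid markers were 0.712 and 31.7 FPKM in WT iNKT and 45.2 and 399.6 in WT CD44hi, and their part in these differences was not tested.

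Oasl1 had the largest ratio, 4.56 (3.50 to 5.94), with 12.6 FPKM in WT iNKT against 2.76 in WT CD44hi. Ifit3 was 2.47-fold higher (2.10 to 2.91), Oas2 2.39-fold (2.01 to 2.84), Ifit1 2.32-fold (1.996 to 2.70) and Isg15 2.26-fold (1.90 to 2.67). Oas3, at 24.4 and 11.8 FPKM, was 2.08-fold higher (1.87 to 2.31) and lay just inside the rule at a log2 difference of 0.99. Rtp4, an interferon-induced chaperone gene for receptors, and Xaf1, a pro-apoptotic gene, were 1.94-fold (1.67 to 2.25) and 1.87-fold higher (1.5005 to 2.31). Irf7 was 1.56-fold higher (1.43 to 1.69), and Zbp1 1.61-fold (1.48 to 1.75). Ifngr2 was 4.28-fold lower in WT iNKT (3.32 to 5.61) and Samhd1 1.73-fold lower (1.63 to 1.83).

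Members with and without the response element letters overlapped in this comparison. The 11 members holding GAAANNGAAA had a median log2 difference of 0.57 (range -0.42 to 1.24), with 8 above 0, and the 20 others with a window had a median of 0.32 (range -1.83 to 1.85), with 14 above 0. In KO iNKT against WT iNKT, members holding it had a median of 0.01 (6 above 0, 5 below). The others had -0.23 (5 above 0, 15 below). These medians were 0.16 and 0.07 in the CD44hi genotype pair and 0.22 and 0.03 in the KO cell type pair.

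KO iNKT was compared with KO CD44hi to ask the same in the KO mice. The member lists were more even there. The 3 iNKT genes called higher in KO CD44hi enter this pair too, and their part was not tested. Here 3 members were called higher (Oas3, Oasl1 and Cmpk2), against 3.03% of 11471 measured genes, and 3 lower (Ifngr1, Ifi44 and Samhd1), against 9.07%. The median was 0.14 over the members and -0.02 over all measured genes, with 25 members above 0 and 15 below (48.2% and 51.8% of all measured genes). Beyond counting error 15 were higher and 11 lower, against 29.2% and 32.7% of 10366 genes. Of the 6 genes called higher in the WT pair, Oasl1 was called again, at 12.3 and 5.45 FPKM (2.26-fold, 1.82 to 2.77). Ifit1, Ifit3, Isg15 and Oas2 were at ratios of 1.18 (0.994 to 1.39), 1.09 (0.922 to 1.28), 1.18 (0.975 to 1.41) and 0.989 (0.823 to 1.18). Oas3 was 2.18-fold higher (1.98 to 2.39). Ifngr1 was 2.85-fold lower in KO iNKT (2.51 to 3.25), and Ifngr2 1.88-fold lower (1.62 to 2.18). Each library enters both a genotype and a cell type comparison, so the 4 comparisons are not independent.

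**Figure D4:**
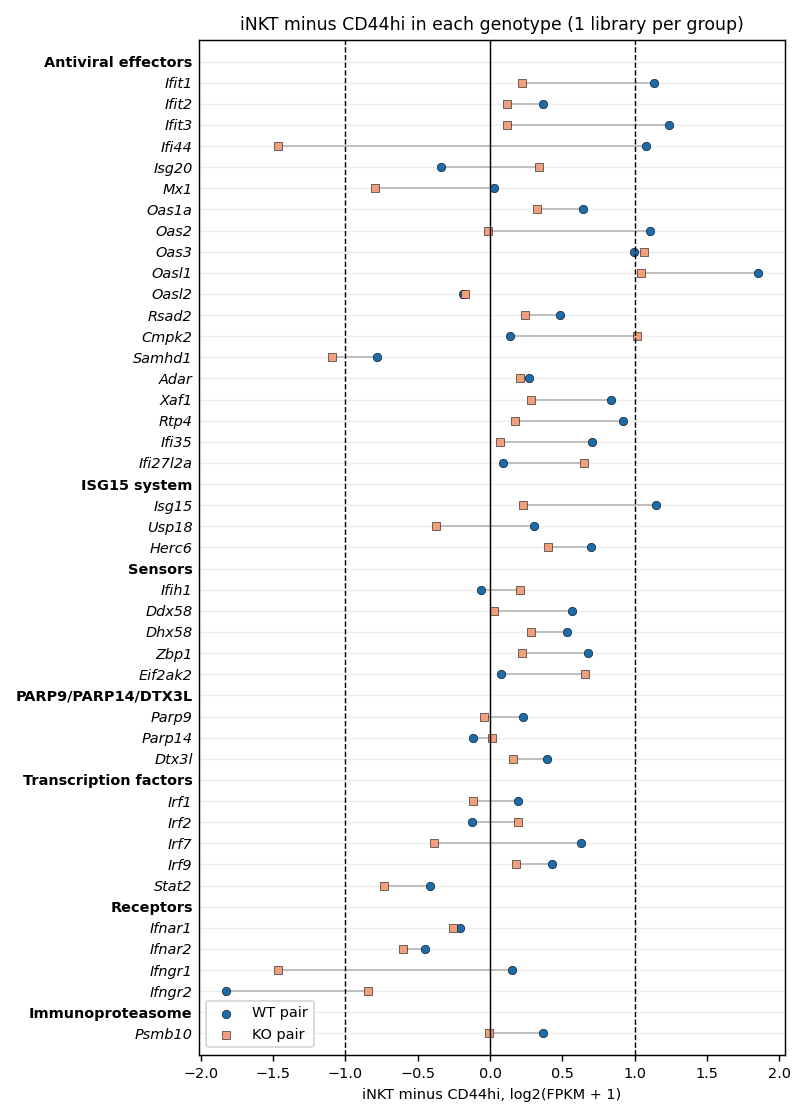
iNKT minus CD44hi on log2(FPKM + 1) for each member (horizontal axis) in the WT pair (circles) and the KO pair (squares), with dashed lines at the 2-fold rule. Of the members, 6 pass it upward in the WT pair and 3 in the KO pair, with Oasl1 in both.

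The other genes of the pathway were taken from a list of 60, of which 57 had a row. In KO iNKT 1 of 50 measured genes was called higher and 4 lower, where 6.08% and 3.35% of all measured genes were. Ptpn6, which encodes the phosphatase SHP-1, went from 96.4 FPKM in WT to 228 in KO (2.37-fold higher, 2.20 to 2.55). Lower were Ifng, the ligand of the gamma receptor, from 112 to 12.9 FPKM (8.67-fold, 6.88 to 11.1), the DNA sensor gene Aim2, from 20.3 to 6.68 (3.04-fold, 2.36 to 3.92), the RNA sensor gene Tlr7, from 7.54 to 2.07 (3.64-fold, 2.53 to 5.25), and Ifitm3, a restriction factor for virus entry, from 5.45 to 0.807 (6.75-fold, 1.89 to 34.4). The ligand and the ligand-binding chain of the gamma receptor were thus both lower in KO iNKT. The Ifitm3 value in KO iNKT rests on about 3 fragments. The 2 myeloid markers called lower in this pair are given above, and their part was not tested. The receptor kinase genes stayed within 2-fold, with Jak1 at 162 and 133 FPKM, Jak2 at 79.5 and 54.8 and Tyk2 at 36.9 and 25.8. Ifnb1, Ifna2 and Ifna4 were listed at 0 in both iNKT libraries.

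In KO CD44hi 2 of 53 measured pathway genes were called higher and 2 lower, where 2.44% and 1.14% of all measured genes were. Irf8, which directs dendritic cell and B cell development, went from 22.9 to 105 FPKM (4.59-fold, 4.28 to 4.92), and Bst2, which encodes tetherin and is also a plasmacytoid dendritic cell marker, from 64.1 to 195 (3.04-fold, 2.83 to 3.28). Ifng was 2.24-fold lower (2.001 to 2.50), from 39.98 to 17.9 FPKM, and the feedback inhibitor gene Socs3 2.11-fold lower (1.98 to 2.26), from 49.8 to 23.6.

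Between cell types the endosomal sensing genes did not all point one way. Tlr7 was at 7.54, 2.07, 5.32 and 10.1 FPKM, so it was 1.42-fold higher in WT iNKT than in WT CD44hi (1.15 to 1.73) and 4.89-fold lower in KO iNKT than in KO CD44hi (3.56 to 6.83). Tlr9 was listed at 0 in WT iNKT and KO iNKT and reached 4.93 FPKM in WT CD44hi and 10.7 in KO CD44hi. Unc93b1, which carries these receptors to endosomes, was at 17.0, 10.9, 68.2 and 117 FPKM. In the WT pair 11 of 53 pathway genes were called lower in iNKT and 1 higher (Ifng), where 10.9% and 3.65% of all measured genes were. In the KO pair 12 were called lower and 0 higher, where 9.07% and 3.03% were. The lower ones included Irf5, Irf8, Ifitm1, Ifitm2, Ifitm3, Trex1 and Ube2l6 in both pairs, and Irf4, a factor of lymphocyte differentiation, in the WT pair (4.84 against 15.4 FPKM). The CD44hi libraries also carried the markers of B, myeloid and plasmacytoid dendritic cells given above, in which several of these genes are known to be high, and the part of those cells was not tested.

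**Figure D5:**
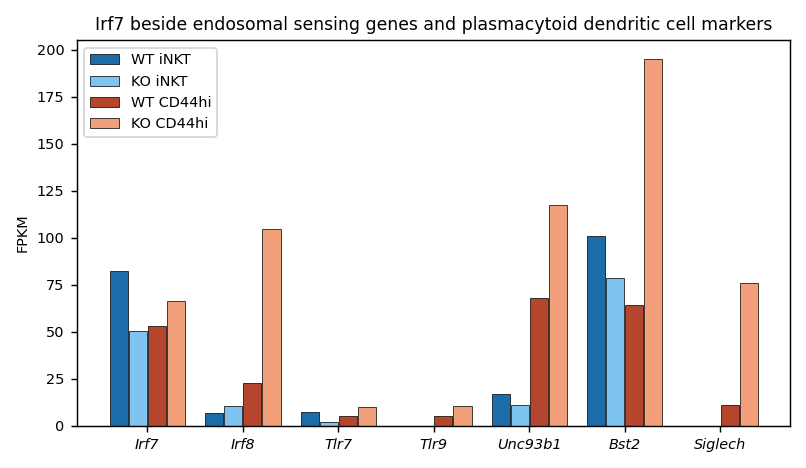
FPKM (vertical axis, from 0) of Irf7 beside endosomal sensing genes and markers of plasmacytoid dendritic cells, with 1 bar per library. Irf8, Unc93b1, Bst2 and Siglech are highest in KO CD44hi, while Irf7 is highest in WT iNKT at 82.2.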

How the data were processed

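RNA of sorted spleen cells was sequenced in 4 libraries, 1 per group. The authors deposited 1 table of FPKM values per gene symbol and library, per the file headers. Bowtie2 (2.0.0), Cufflinks (2.0.2), TopHat (1.3.2) and the build mm10 are listed, with no role, by the submitters' processing notes. The annotation, filters and strand setting are not given in the sources used here. Rows with a date or number as symbol (26 in each CD44hi file) and small RNA genes (816 rows) were left out, and rows sharing a symbol (220 symbols) were summed. The members and lists were chosen with earlier results of these data known. Other pathway genes are named where called in at least 1 comparison. Il10rb, Jak1, Jak2, Tyk2, the related copies and the interferon genes at 0 fall outside that rule and were chosen after their values were seen.

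Depth was estimated from the lowest step of FPKM times length over genes of 1 transcript and at least 2500 bases (GENCODE M21, GRCm38). Between 69.4% and 75.3% of the low values, at 0.5 to 5.5 estimated fragments, came within 0.15 of a whole number. Members' fragments used the median length of basic protein-coding transcripts, and 90.3% of genes at 1 FPKM or more had a length. The pseudocount was 1. Scripts (Python 3.11.15, pandas 2.3.3, scipy 1.17.1) were tested on simulated data. Exons of 15 members overlap another gene, 10 of them on the opposite strand. No test or p-value was computed. Alternatives were other pseudocounts, filters, thresholds, a median ratio scaling and the highest of several rows.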

Additional observations from a re-analysis of the deposited data

Results flagged for a closer look

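For 4 members the genotype effect differed by a log2 size of at least 1 between cell types with opposite directions, KO iNKT being lower and KO CD44hi higher than its WT partner. With 1 library per group the difference was not tested. The iNKT minus CD44hi difference of effects was -2.54 for Ifi44 (log2 effects of -1.66 and 0.88), -1.12 for Ifit3 (-0.56 and 0.56), -1.12 for Oas2 (-0.60 and 0.53) and -1.01 for Irf7 (-0.69 and 0.32). The Ifi44 value in KO iNKT rests on about 3 fragments. Over all measured genes 5.38% had a difference of effects this low, counted whatever the signs of the effects. The share that also had opposite signs was not computed. Plasmacytoid dendritic cell markers were higher in KO CD44hi beside these genes (summed level 157 to 627 FPKM), and 3 of the 6 iNKT genes were called higher there. WT CD44hi, which enters each of these differences, was also the library with Y-linked RNA. The part of all these was not tested.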

How the results depend on the processing

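No paired analysis was possible because each group was 1 library without a replicate number in the labels. Of the counts of members called and the medians, recomputed under each setting, 74 stayed within 1.5 times the count or 0.1 of the median, and 13 did not. Calling at 1.5-fold gave 4 members higher and 8 lower in the iNKT genotype pair, 4 higher and 1 lower in the CD44hi genotype pair, 14 higher and 2 lower in the WT cell type pair, 5 higher and 7 lower in the KO cell type pair, and 15 with a differing genotype effect. A pseudocount of 0.1 and the plain ratio each gave 1 member higher in KO CD44hi, Ifi44, and the plain ratio gave 8 differing genotype effects. Requiring 5 FPKM left 1 member lower in KO iNKT. Samhd1 (KO iNKT, -1.01 to -1.02) and Oas3 (WT pair, 1.01 to 1.05) passed the 2-fold rule under a pseudocount of 0.1, the plain ratio and median ratio scaling. No value changed sign among those called. Longest or shortest transcript lengths, chosen after seeing the data, kept every count beyond counting error within 1.5 times. The depth of the iNKT libraries limits low genes such as Ifi44, and 1 library per group limits every comparison.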
